A study of Mus musculus with 3 samples.

Results

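Of 130664 regions of accessible chromatin found in 3 libraries of mouse embryonic stem cells, 833 lay at olfactory or vomeronasal receptor genes. They were chosen by position alone: peaks of the 3 libraries that overlapped by at least 1 bp were merged into union regions, and a region was kept when its midpoint lay within 10 kb of the body of a gene whose symbol begins Olfr, Vmn1r or Vmn2r. By nearest gene, 518 regions lay at Olfr genes, 97 at Vmn1r genes and 218 at Vmn2r genes, and 142 had their midpoint inside a receptor gene. The other 129831 regions served for comparison, both whole and as the 44737 of them that lay more than 10 kb from any protein-coding gene. No expression was measured, so silence of these genes was not checked here.

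Accessibility was profiled by ATAC-seq, in which the Tn5 transposase inserts sequencing adapters into open DNA, in a study of the electrostatics of disordered protein parts and the way transcription factors find and open sites. All cells derived from CGR8, a mouse embryonic stem cell line, and grew in serum with LIF, CHIR99021 (an inhibitor of GSK3) and PD184352 (an inhibitor of MEK). The line SES4.1 carried a doxycycline-inducible Halo-Sox2 and received 300 ng/mL doxycycline for 20 h, the line SES5.1 carried an inducible Halo-Sox2a, which the labels do not describe further, and received 70 ng/mL for 20 h, and the control line SES11 lacked an inducible transgene. The protocols describe staining with 50 nM of a fluorescent Halo ligand and sorting through the same intensity gate for both Halo lines; for the control they give no doxycycline dose, stain or sort, so transgene, doxycycline, stain and sort cannot be told apart, and whether each line is a clone is not stated.

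Each group was 1 library, so there was no replicate error to set a difference between groups against, and no test between groups was made. The Halo-Sox2 list had 88898 peaks, the Halo-Sox2a list 83995 and the control list 72638, and the depth behind them is unknown. Intervals given here are 95% Wilson intervals for shares and exact Poisson intervals for densities; both cover counting error only, and regions of a locus are not independent of each other. A peak in a bulk library does not tell a site that is open in few cells from a site that is weakly open in many. Among 8 embryonic stem cell markers, Zfp42, Klf4, Fgf4 and Dppa5a had a region within 1 kb of a gene end in every list, Nanog and Tdgf1 had one in the Halo-Sox2a and control lists, and Pou5f1 and Esrrb had none in any list. Of 8 sensory neuron markers, the Halo-Sox2 list had a region at 5 and the other lists at 3 each; Gnal, Adcy3 and Cnga4 had one in every list, Gng13 and Cnga2 with Halo-Sox2 alone, and Omp (olfactory marker protein), Stoml3 and Trpc2 (the vomeronasal channel) in none. All 4 mesendoderm and all 4 neural markers, 3 of 4 primitive endoderm and 3 of 4 trophoblast markers had a region in every list, so a region at a gene end did not tell the stem cell markers from those of other types.

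Olfr genes encode the odorant receptors of the nose, and Vmn1r and Vmn2r genes the pheromone receptors of the vomeronasal organ. All are G protein-coupled receptors that stand in large clusters of tandem copies, many of them pseudogenes, and a mature sensory neuron expresses very few of them. In olfactory neurons the receptor genes that are not chosen lie in heterochromatin, and the choice of an odorant receptor involves enhancers bound by Lhx2, Ldb1 and Ebf proteins.

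The promoters were nearly all without a peak. Of 1272 receptor promoter windows, each running from 250 bases before to 50 bases after the recorded start in RefSeq (GRCm38.p6), 10 were overlapped by a region, or 0.786% (0.428 to 1.44), against 50.1% of the 32851 windows of all genes. The Halo-Sox2 list held 5 of the 10, the Halo-Sox2a list 4 and the control list 8. Of the windows of all genes, these lists held 47.0%, 47.5% and 47.0% in the same order. Windows held by at least 2 lists are shown because they are the receptor starts seen as open in more than 1 library; capitals mark ACAAAG or ACAATG on either strand, cores bound by Sox proteins.
Vmn2r29: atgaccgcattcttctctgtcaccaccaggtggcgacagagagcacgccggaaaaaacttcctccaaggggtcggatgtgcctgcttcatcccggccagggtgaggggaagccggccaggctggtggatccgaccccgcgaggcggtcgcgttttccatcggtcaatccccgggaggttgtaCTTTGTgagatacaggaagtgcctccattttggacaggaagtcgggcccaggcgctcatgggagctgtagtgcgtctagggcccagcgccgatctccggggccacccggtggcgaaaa
Olfr95: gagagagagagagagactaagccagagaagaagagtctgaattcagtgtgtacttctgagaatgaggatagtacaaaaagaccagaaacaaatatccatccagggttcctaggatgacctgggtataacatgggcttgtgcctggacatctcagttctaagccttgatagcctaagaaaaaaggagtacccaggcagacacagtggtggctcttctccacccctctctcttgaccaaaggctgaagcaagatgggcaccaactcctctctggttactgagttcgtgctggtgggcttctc
Olfr373: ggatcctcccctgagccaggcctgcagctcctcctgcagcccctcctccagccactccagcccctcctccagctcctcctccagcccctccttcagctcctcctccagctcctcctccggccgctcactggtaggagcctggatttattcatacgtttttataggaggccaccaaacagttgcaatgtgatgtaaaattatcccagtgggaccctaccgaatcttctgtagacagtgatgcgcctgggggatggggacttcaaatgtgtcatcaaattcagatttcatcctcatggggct
Olfr982: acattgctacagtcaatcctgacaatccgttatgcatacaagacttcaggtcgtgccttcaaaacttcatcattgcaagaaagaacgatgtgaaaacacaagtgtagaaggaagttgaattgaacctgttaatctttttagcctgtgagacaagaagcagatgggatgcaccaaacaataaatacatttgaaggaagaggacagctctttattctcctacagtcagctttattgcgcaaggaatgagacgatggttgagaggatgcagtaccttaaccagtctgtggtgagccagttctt

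The Vmn2r29 window is chr7:7278240-7278539 on the minus strand in GRCm38.p6, and a region of all 3 lists at chr7:7277736-7278502 covered its bases 38 to 300, counted from the 5′ end. The midpoint of that region also lay 4190 bp from Clcn4, a protein-coding chloride transporter gene. The score of this region stood at percentile 85.3 with Halo-Sox2, 84.7 with Halo-Sox2a and 93.3 in the control. It holds CTTTGT, the other strand of ACAAAG, at bases 183 to 188; the other 3 windows shown hold neither core. ACAAAG occurred in 24.8% of receptor windows and 18.7% of all windows of this length, and ACAATG in 29.2% and 12.6%. The rise was not limited to these cores. TAATTA occurred in 16.6% and 5.29% and ATGCAAAT in 2.83% and 1.74%, while CCCNNGGG (N for any base) occurred in 4.17% and 13.7%. A match is a run of letters and not a bound site.

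The Olfr95 window, chr17:37211802-37212101 on the minus strand, was covered from base 170 to base 300 by a region of all 3 lists, at percentile 35.4 with Halo-Sox2, 66.1 with Halo-Sox2a and 81.9 in the control. The Olfr373 window, chr8:72099512-72099811 on the plus strand, was covered over its whole length by a region of all 3 lists, at percentiles 20.1, 56.8 and 69.1 in the same order. The Olfr982 window, chr9:40074047-40074346 on the plus strand, was touched over its last 38 bases by a region absent from the Halo-Sox2 list, at percentile 17.3 of the Halo-Sox2a list and 51.2 of the control list. In all 4 windows the control gave the highest percentile of the lists that held the region, and at Vmn2r29 the 3 values lay closest together.

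The remaining 6 windows were each held by 1 list. Those of Olfr1349, Olfr94, Olfr1532-ps1 and Olfr479 were held by the control alone, at percentiles 46.4, 32.8, 8.73 and 3.32, and those of Olfr136 and Olfr598 by Halo-Sox2 alone, at 86.1 and 18.3. The Olfr136 region reached only the last 10 bases of its window. No window was held by Halo-Sox2a alone.

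Receptor windows were also poor in G and C. Their median GC content was 35.7% against 53.3% for other windows, and other windows with a region had a median of 61.0%. Vmn2r29 had the highest GC content of the 1272 receptor windows, 62.3%, with 23 CpG dinucleotides against a median of 1.00; Olfr373 ranked 5 with 56.0%, Olfr95 ranked 51 with 48.3%, and Olfr982 ranked 199 with 41.3%. Among windows with a GC content from 35% to below 40%, a region overlapped 0 of 443 receptor windows, with a Wilson upper limit of 0.860% (3 counts of the total would be 0.677%), and 113 of 1645 other windows, or 6.87% (5.74 to 8.19). From 40% to below 45% the counts were 4 of 193, or 2.07% (0.809 to 5.21), and 509 of 3745, or 13.6% (12.5 to 14.7). In all 5 bins of GC content receptor windows were overlapped less often than other windows, and the intervals did not overlap. Of the 113 other windows overlapped between 35% and 40%, 22 were held by Halo-Sox2 alone and 11 by the control alone. The base composition of the 833 regions was not read, and its part in the differences between lists was not tested. Of 1110 protein-coding Olfr genes, 781 have a recorded body of at least 900 and under 1000 bp, so for many of them the recorded start may be that of the coding sequence.

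Around the gene bodies the control list again held the most. A region lay within 10 kb of 726 of 2073 receptor genes, or 35.0% (33.0 to 37.1), against 90.0% of 20435 other protein-coding genes. Each Halo list had a region at 439 receptor genes, or 21.2% (19.5 to 23.0). The control list had one at 509, or 24.6% (22.7 to 26.5), and the intervals overlap. Of other protein-coding genes, the Halo-Sox2 list had a region at 86.8%, the Halo-Sox2a list at 87.0% and the control list at 86.3%. A region lay near 218 of 607 receptor pseudogenes, or 35.9% (32.2 to 39.8), and near 507 of 1465 protein-coding receptors, or 34.6% (32.2 to 37.1), with overlapping intervals.

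Counted per length of DNA, the windows around receptor genes held 21.1 regions per Mb (19.7 to 22.6) over 39.5 Mb, fewer than the 48.4 per Mb of the rest of the genome and the 31.4 per Mb of DNA far from protein-coding genes. The shortfall differed between classes of region. Regions held by the control alone had a density of 4.53 per Mb (3.89 to 5.25) at receptor genes, 4.88 elsewhere and 4.22 far from genes. Regions held by Halo-Sox2 alone had 4.18 per Mb (3.56 to 4.87) at receptor genes, 11.8 elsewhere and 8.57 far from genes. Regions of all 3 lists had 5.39, 15.6 and 7.66 per Mb, and regions of both transgene lists without the control 1.11, 4.34 and 2.55. The density elsewhere was therefore 1.08 times that at receptor genes for control-only regions, 2.82 times for Halo-Sox2-only, 2.66 times for Halo-Sox2a-only and 3.90 times for regions of both transgene lists.

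**Figure D1:**
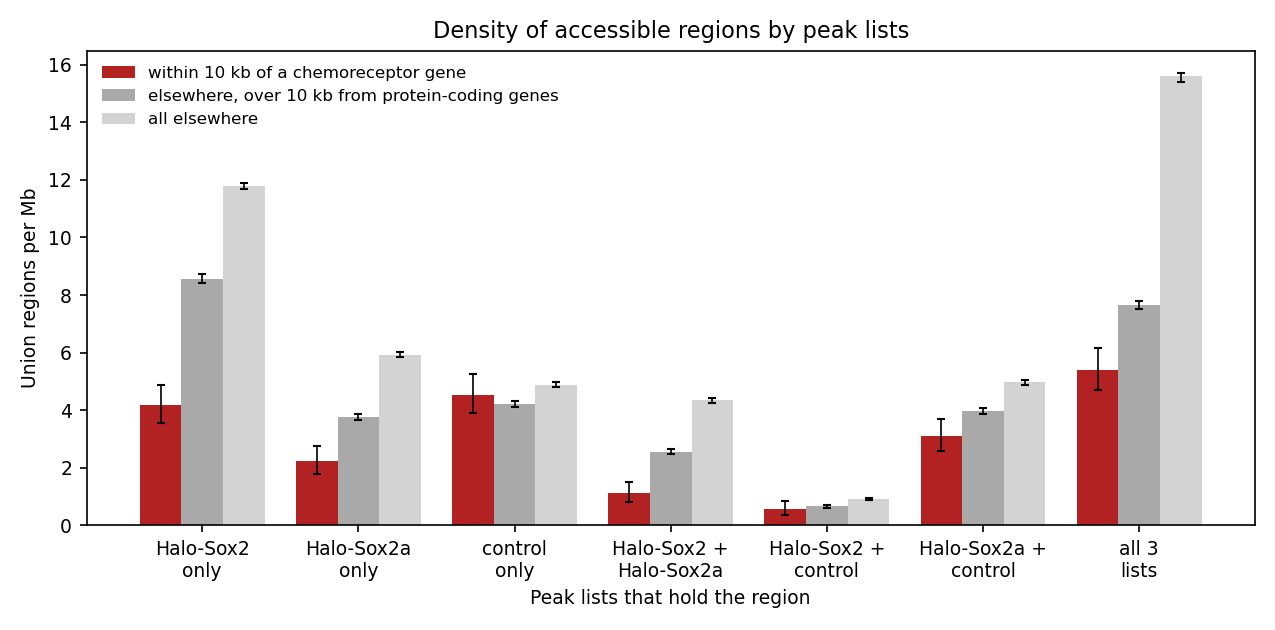
Union regions per Mb (vertical axis) by the peak lists that hold them (horizontal axis), within 10 kb of receptor genes, elsewhere over 10 kb from protein-coding genes, and in all DNA elsewhere; bars are densities and error bars exact 95% Poisson intervals. The control-only bars stand at 4.53, 4.22 and 4.88 per Mb, while the Halo-Sox2-only bars rise from 4.18 to 8.57 and 11.8.

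As a share of the 833 regions, 179 were held by the control alone, or 21.5% (18.8 to 24.4), against 10.2% of all union regions, 10.1% of regions elsewhere and 13.4% (13.1 to 13.8) of regions far from protein-coding genes. Halo-Sox2 alone held 165, or 19.8% (17.2 to 22.7), against 24.3% of all and 27.3% far from genes. Halo-Sox2a alone held 88, or 10.6% (8.65 to 12.8), against 12.2% of all, which lies inside the interval. Both transgene lists without the control held 44, or 5.28% (3.96 to 7.02), against 8.95% of all and 8.13% far from genes. Halo-Sox2 and the control held 22, or 2.64%, against 1.90% of all and 2.10% far from genes. Halo-Sox2a and the control held 122, or 14.6% (12.4 to 17.2), against 10.3% of all and 12.6% far from genes, the latter inside the interval. All 3 lists held 213, or 25.6% (22.7 to 28.6), against 32.1% of all and 24.4% far from genes.

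Summed over classes, the control list held 536 of the 833 regions, or 64.3% (61.0 to 67.5), though it was the shortest list and held 54.4% of regions elsewhere. The Halo-Sox2 list, the longest, held 444, or 53.3%, against 67.4% elsewhere. The Halo-Sox2a list lay between them with 467, or 56.1%, against 63.7%. Peaks near receptors made up 0.743% of control peaks (0.683 to 0.809), 0.561% of Halo-Sox2a peaks (0.512 to 0.614) and 0.501% of Halo-Sox2 peaks (0.456 to 0.549).

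**Figure D2:**
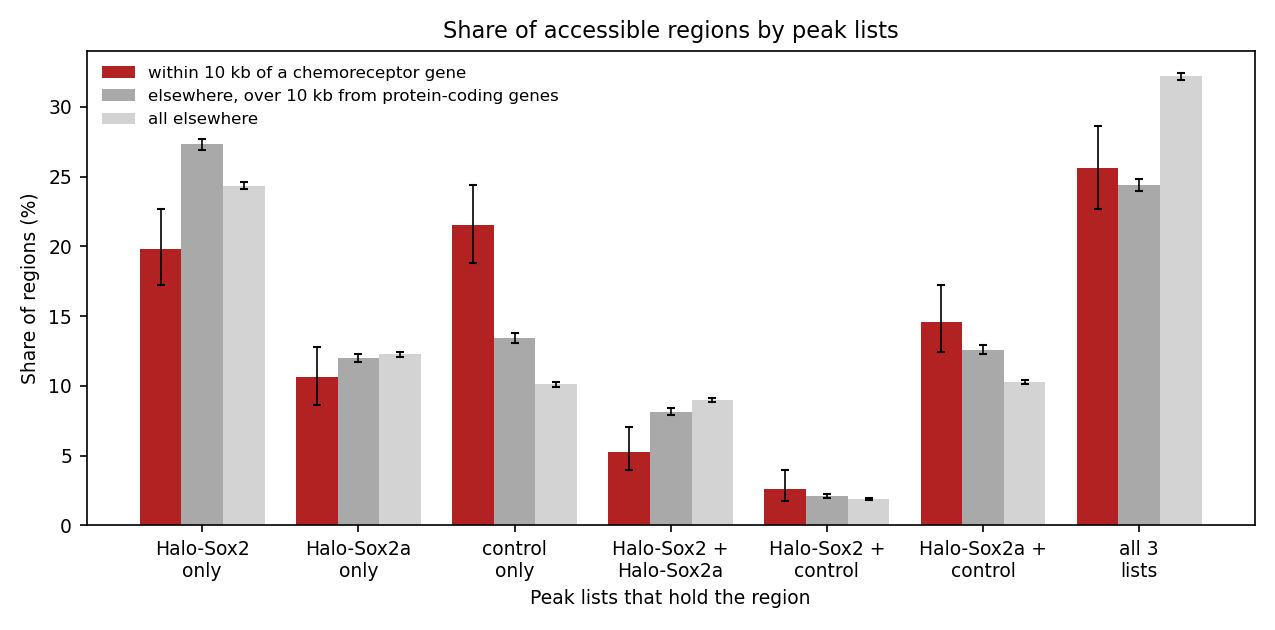
Share of regions in percent (vertical axis) by the peak lists that hold them (horizontal axis), for the 833 regions at receptor genes, the 44737 elsewhere over 10 kb from protein-coding genes and all 129831 elsewhere; error bars are 95% Wilson intervals. The control-only share is 21.5% at receptor genes, 13.4% far from genes and 10.1% elsewhere.

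The control-only share stayed above that of regions elsewhere up to about 20 kb from the receptors. It was 23.9% for midpoints inside a receptor gene, 18.5% within 1 kb outside it, 22.3% from 1 to 5 kb, 20.1% from 5 to 10 kb, 17.1% from 10 to 20 kb and 10.4% from 20 to 50 kb. The share held by all 3 lists was 26.1% inside receptor genes, 16.7% within 1 kb and 40.8% from 50 to 100 kb. Just inside the 10 kb limit, between 9500 and 10000 bp, 4 of 25 regions were control only, and between 10000 and 10500 bp 7 of 24 were.

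**Figure D3:**
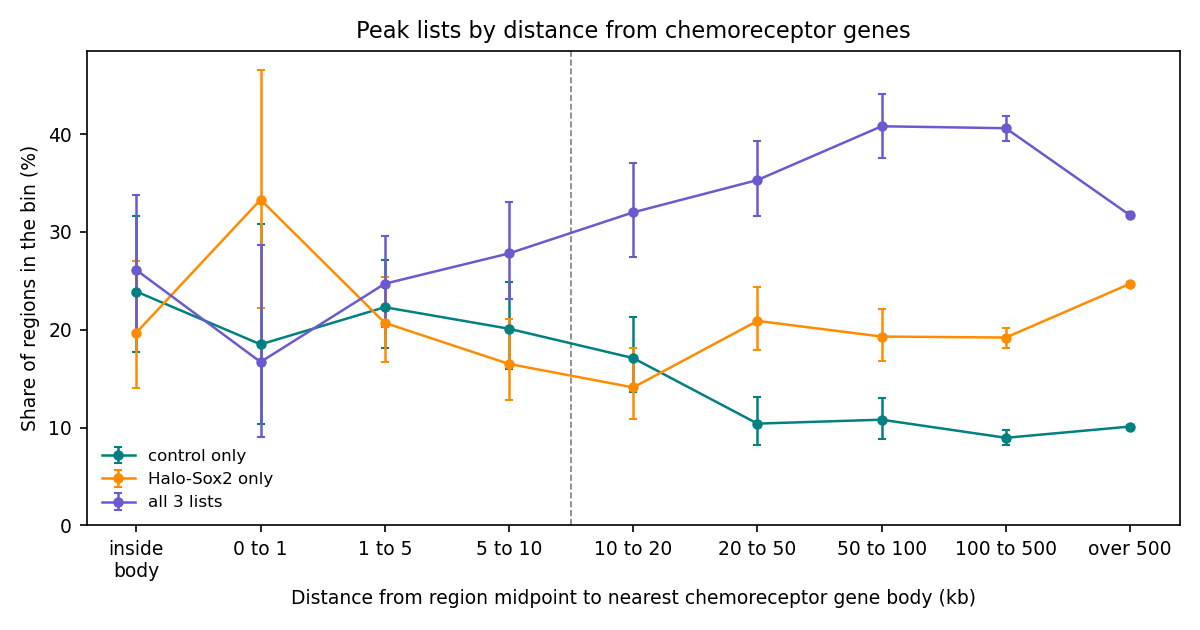
Share of regions in percent (vertical axis) by the distance of the midpoint from the nearest receptor gene body in kb (horizontal axis), for control-only, Halo-Sox2-only and all-list regions; points are shares, error bars 95% Wilson intervals, and the dashed line marks the 10 kb limit. The control-only share lies between 17.1% and 23.9% up to 20 kb and between 8.95% and 10.8% beyond.

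Distance from other genes was compared as well, since receptor clusters lie far from them. Regions elsewhere were control only in 8.27% of cases inside a protein-coding gene and in 18.4% at more than 250 kb from one. At receptors the share was 8.93% inside another protein-coding gene and 30.2% (24.3 to 36.9), or 61 of 202, at more than 250 kb. The receptor share thus exceeded that elsewhere in the far bin by an interval that does not include it, and not inside other genes. From 100 to 250 kb the control-only share was 26.0% (20.4 to 32.6) against 14.3% elsewhere, and from 10 to 50 kb 17.6% (12.5 to 24.1) against 11.3%. From 50 to 100 kb it was 16.6% (11.4 to 23.4) against 11.7%, inside the interval. The Halo-Sox2-only share in the far bin was 14.4% at receptors and 32.5% elsewhere, and from 100 to 250 kb 20.9% and 31.4%. Nearer to genes it hardly differed, with 21.8% and 22.7% from 10 to 50 kb and 26.9% and 27.2% from 50 to 100 kb. The 125 regions that also lay within 10 kb of another protein-coding gene were held by all 3 lists in 60 cases (48.0%) and by the control alone in 14 (11.2%), whereas the 708 without such a neighbour had 165 control-only regions, or 23.3% (20.3 to 26.6).

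Most control-only regions had low scores. The authors' score ranks peaks within a list, and the median percentile of the 179 control-only regions was 22.5, against 18.5 for control-only regions elsewhere. Below percentile 25 of the control list, 108 of 136 regions at receptors were held by the control alone, or 79.4% (71.9 to 85.4), against 47.1% elsewhere and 53.2% far from genes. From percentile 25 to 50 the share was 32.8% (25.1 to 41.5) against 20.6% elsewhere and 26.6% far from genes, the latter inside the interval. From 50 to 75 it was 20.4% (14.6 to 27.8) against 6.96% elsewhere and 11.3% far from genes. From 75 up, 2 of 136 were control only, or 1.47% (0.404 to 5.20), against 0.594% elsewhere and 1.33% far from genes. The excess over regions elsewhere therefore stood below percentile 75. Against regions far from genes the interval lay higher only below percentile 25 and from 50 to 75. The strongest control peaks at receptors were nearly all shared.

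The other lists gave another picture. The Halo-Sox2-only share of Halo-Sox2 regions at receptors was 50.8%, 31.1%, 36.4% and 26.9% in the same 4 bins of its own score, against 50.3%, 41.3%, 33.2% and 20.2% elsewhere and 53.1%, 47.7%, 43.0% and 30.8% far from genes. The Halo-Sox2a-only share was 44.4%, 20.2% and 7.08% in the lower 3 bins and 0 of 117 in the highest, with a Wilson upper limit of 3.18% (3 counts of the total would be 2.56%), beside 47.1%, 23.2%, 7.47% and 0.412% elsewhere. In the upper 2 bins the intervals of the Halo-Sox2-only share at receptors (27.9 to 45.9 and 19.3 to 36.2) included both comparison shares. From percentile 25 to 50 the interval of that share (22.9 to 40.5) lay below both.

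**Figure D4:**
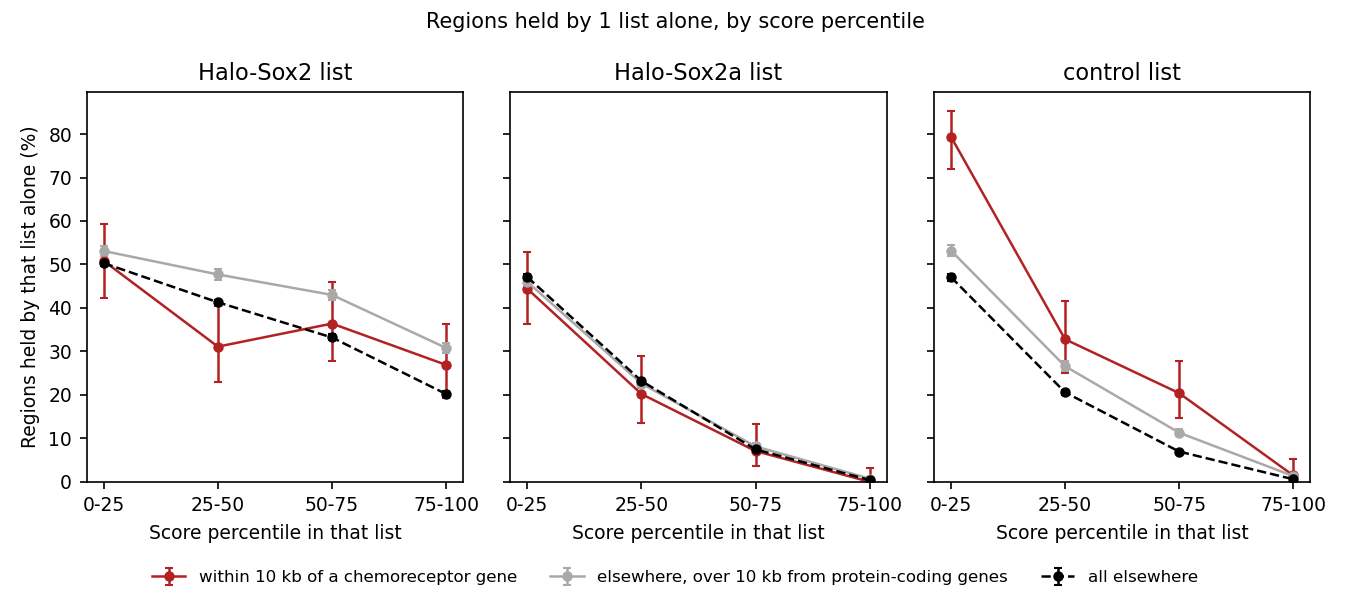
Share of a list's regions that no other list holds, in percent (vertical axis), by percentile of the authors' score within that list, in bins of 25 (horizontal axis), in 1 panel for each list; points are shares and error bars 95% Wilson intervals. In the control panel the receptor regions start at 79.4% in the lowest bin and fall to 1.47% in the highest, above regions elsewhere in the lower 3 bins.

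Where all 3 lists held a region, the order of its percentiles was set against that elsewhere, since the lists differ in length. Of the 213 such regions, 168 stood at a higher percentile in the control than in the Halo-Sox2 list, or 78.9% (72.9 to 83.8), against 63.9% elsewhere and 61.9% far from genes. Their median percentile was 79.1 by control scores, 73.7 by Halo-Sox2a scores and 55.3 by Halo-Sox2 scores. Against Halo-Sox2a the control percentile was higher in 115, or 54.0% (47.3 to 60.6), where the share elsewhere was 42.5%. Peaks at receptors were narrower than elsewhere in every list, with median widths of 443 bp against 493 bp (Halo-Sox2), 434 against 487 (Halo-Sox2a) and 409 against 456 (control).

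The 3 families had overlapping intervals in each of the 7 classes. The control-only share was 21.6% at Olfr genes (112 of 518), 18.6% (12.1 to 27.4) at Vmn1r genes (18 of 97) and 22.5% at Vmn2r genes (49 of 218). Halo-Sox2-only regions made up 20.5%, 21.6% and 17.4% in the same order, and regions of all 3 lists 23.0%, 26.8% and 31.2%. In density the Vmn1r genes stood lower, with 14.5 regions per Mb (11.8 to 17.7) against 22.6 (20.7 to 24.7) for Olfr and 21.9 (19.1 to 25.0) for Vmn2r. The control list held the most regions in every family, 324 of 518, 59 of 97 and 153 of 218. For Vmn1r the lead was small, as each Halo list held 56. The interval of the Vmn1r control share, 60.8% (50.9 to 69.9), included the 54.4% of regions elsewhere. Counted by genes with a region, Vmn1r turned the order, with overlapping intervals: 56 for the control, 59 for Halo-Sox2a and 61 for Halo-Sox2. By that count the control still led for Olfr, with 357 genes, and for Vmn2r, with 96.

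Receptor genes whose bodies lie within 1 Mb of each other were joined into 111 loci. All 34 loci with at least 10 genes held a region, and 43 smaller loci with 73 genes in all held none. The 6 loci with the most regions, the sixth of them tied with another, held 302 of the 833. The cluster from Olfr987 to Olfr1274 on chromosome 2, with 293 genes (85330967 to 90401674), had 82 regions, of which 27 were control only, 10 Halo-Sox2 only and 15 in all 3 lists. The cluster from Olfr693 to Olfr519 on chromosome 7, with 80 genes (106677534 to 108894405), had 47 regions, 19 control only, 10 Halo-Sox2 only and 8 in all 3 lists. These were the loci with the most control-only regions; without both, the control-only share of the rest was 18.9% and the Halo-Sox2-only share 20.6%, so the order of those 2 classes turned while the control-only share stayed above that elsewhere.

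The make-up of the other 4 loci varied. Olfr160 to Olfr986 on chromosome 9 had 53 regions, 8 control only, 7 Halo-Sox2 only and 18 in all 3 lists. Olfr543 to Olfr692, the second large cluster of chromosome 7, had 45 regions, 7 control only against 11 Halo-Sox2 only and 13 in all 3 lists. Olfr9 to Vmn2r87 on chromosome 10 had 36, 7 control only against 3 Halo-Sox2 only; Vmn1r55 to Vmn1r-ps69 on chromosome 7, with 123 genes, tied with it at 36 regions, 8 control only and 6 Halo-Sox2 only. The locus from Vmn2r-ps15 to Vmn2r-ps20 on chromosome 4 had 39 regions at 6 pseudogenes, or 78.7 per Mb, with 7 control only, 8 Halo-Sox2 only and 15 in all 3 lists. Of those 39, 31 also lay within 10 kb of a protein-coding zinc-finger (Zfp) gene, 21 of them inside it, so this density is not that of pseudogenes alone.

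Over the 13 loci with at least 20 regions, control-only regions outnumbered Halo-Sox2-only regions in 8 and were fewer in 5. The locus from Olfr465-ps1 to Vmn2r-ps109 on chromosome 13, named after its values were seen, had 23 regions with none control only and 13 in all 3 lists. By chromosome, 31 of 107 regions on chromosome 2 were control only and 46 of 185 on chromosome 7, against 2 of 39 on chromosome 11 and 4 of 59 on chromosome 13. Chromosomes 3 (8 of 26), 6 (16 of 60) and 17 (18 of 67) also had a higher share than the 24.9% of chromosome 7. These shares were not set beside those of all regions on the same chromosome. No region lay at the 10 receptor genes of X or the 20 of Y. The whole of X held 3761 union regions and the whole of Y only 58. The widest receptor locus of X, from Olfr1320 to Olfr1324, covered 0.105 Mb with its 10 kb margins. Whether fewer regions lay at these genes than such counts and lengths would give was not tested.

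**Figure D5:**
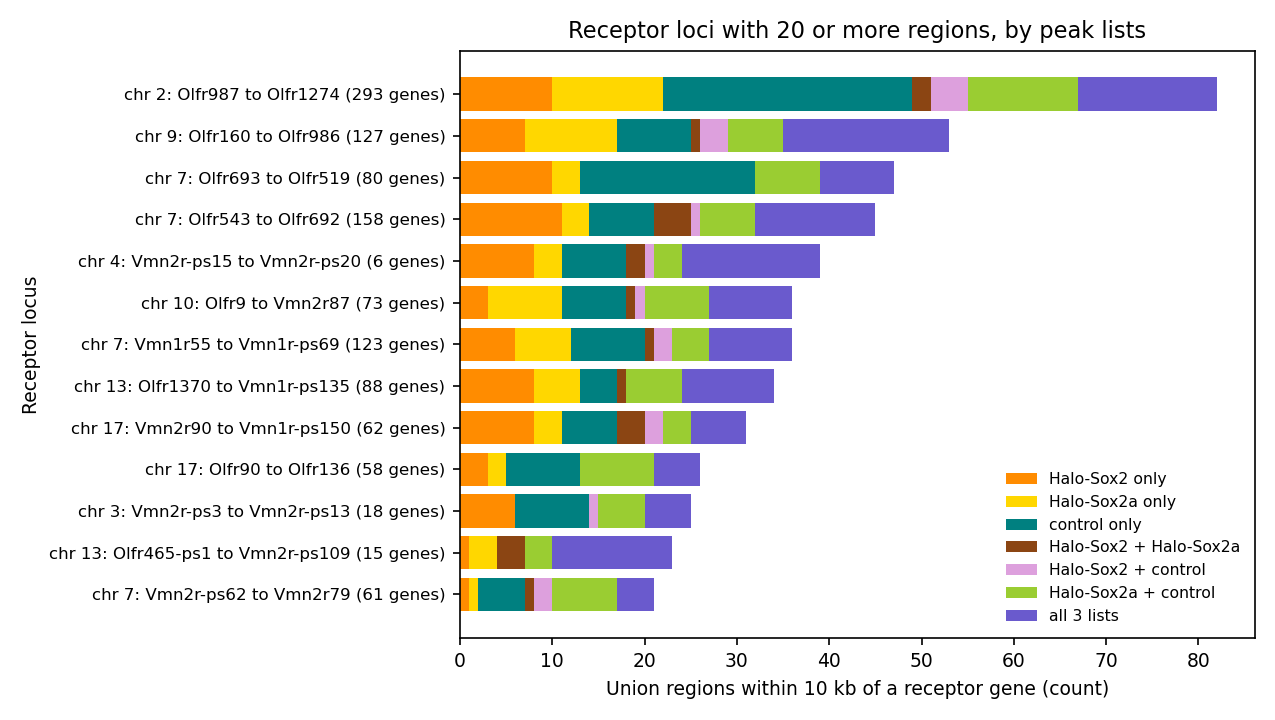
Number of union regions (horizontal axis) at each receptor locus with at least 20 regions (vertical axis, by chromosome and the genes at its ends), with bar segments by the peak lists that hold them. Control-only regions form the largest segment at the chromosome 2 cluster (27 of 82) and at Olfr693 to Olfr519 (19 of 47), and are missing from Olfr465-ps1 to Vmn2r-ps109.

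Single genes had few regions each. Vmn2r-ps16, a pseudogene on chromosome 4, had the most within 10 kb, 16, of which Halo-Sox2 held 7, Halo-Sox2a 10 and the control 10. Vmn2r1, a protein-coding vomeronasal receptor on chromosome 3, had 8, of which Halo-Sox2 held 1, Halo-Sox2a 3 and the control 7; 4 were control only and 3 were held by Halo-Sox2a and the control. Vmn2r-ps17 had 7, of which 5 were in all 3 lists, and Vmn2r-ps11 had 5. Vmn1r2 also had 5, and the same 5 regions counted at its neighbour Vmn1r3; Vmn2r-ps19 had 5 too.

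The strongest regions of all 3 lists lay inside Vmn2r genes. The region at chr13:66698003-66698815, inside the pseudogene Vmn2r-ps106, ranked 37 of the Halo-Sox2 list, 9 of the Halo-Sox2a list and 10 of the control list by score. The region at chr10:130419570-130420629, inside Vmn2r85, ranked 161, 42 and 68. The region at chr5:109690508-109691601, inside Vmn2r-ps23, ranked 582, 221 and 187, and lay 220 bp from the protein-coding gene 5430403G16Rik. Exons were not marked in the gene table, and whether these regions are exonic or intronic is not known.

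Regions of the control alone stood lower in their list, the 3 highest at percentiles 84.9, 81.9 and 74.1. The highest was at chr14:50243536-50244020, 4895 bp upstream of Olfr731, with a score of 226 and rank 10877 of 72638. Next were chr6:123857896-123858501, 5008 bp upstream of Vmn2r25, at rank 13077, and chr7:108026299-108026918, 4687 bp downstream of Olfr478, at rank 18604. The 3 highest regions of Halo-Sox2 alone stood at 96.7, 95.3 and 95.2 of theirs. The highest was at chr13:23133256-23134010, 2852 bp from Vmn1r218, with a score of 836 and rank 2926 of 88898, followed by chr3:64831074-64831783 inside Vmn2r-ps11 at rank 4145 and chr2:87154629-87155186, 4248 bp upstream of Olfr1111, at rank 4243. By median, control-only regions stood at percentile 22.5 and Halo-Sox2-only regions at 38.7 of their lists. Elsewhere the order was the same, with 18.5 and 38.7.

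The highest Halo-Sox2a-only regions stood lower again, at percentile 72.7 near Vmn2r-ps102 (chr13:66183750-66184165), 69.2 near Olfr960 (chr9:39630109-39630400) and 62.4 near Vmn2r-ps76 (chr7:85818194-85818545). Of the regions in both transgene lists without the control, the one at chr9:38137223-38137822, 5615 bp upstream of Olfr890, stood at percentile 99.5 with Halo-Sox2 and 74.3 with Halo-Sox2a. The one at chr9:18745467-18746183, 8867 bp downstream of Olfr24, stood at 97.5 and 82.4, and the one at chr4:52943030-52943920, 7094 bp from Olfr271-ps1, at 98.9 and 53.7. All 3 thus stood higher within the Halo-Sox2 list than within the Halo-Sox2a list. That order was not particular to receptors: the median percentiles of this class were 45.2 and 38.1 at receptors and 50.0 and 38.1 elsewhere.

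Regions held by Halo-Sox2a and the control, absent from the Halo-Sox2 list, reached percentiles 82.9 and 92.5 of those lists near Olfr274-ps1 (chr4:52845233-52845896), 82.7 and 91.5 near Vmn2r-ps15 (chr4:145777670-145777931), and 92.7 and 73.1 near Vmn2r83 (chr10:79496692-79497419). The reverse class, held by Halo-Sox2 and the control, was the smallest, and its highest region, 3710 bp upstream of Vmn2r26 (chr6:124020665-124021431), stood at 50.0 and 79.8. Regions near Olfr1421-ps1 (chr19:12018204-12019431) and inside Olfr676 (chr7:105033961-105034268) followed.

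Most genes of the signalling and gene-choice pathway were marked at their ends in each list, as were most other protein-coding genes. Few receptor genes were. Of 30 such pathway genes, the Halo-Sox2 list had a region within 1 kb of a gene end at 25, the Halo-Sox2a list at 21 and the control list at 21, where the shares of other protein-coding genes were 66.6%, 67.4% and 66.9%. The Halo-Sox2a and control counts thus lay near the shares of other genes. No interval was made for the 30 genes, so whether the higher Halo-Sox2 count exceeds counting error was not tested. By the same measure the receptor genes had a region at 2.56% (1.96 to 3.33), 2.27% (1.71 to 3.00) and 2.70% (2.09 to 3.49), or 53, 47 and 56 of 2073. Among signalling genes, Gnal (the olfactory G protein), Adcy3 (its adenylyl cyclase), Cnga4 (a channel subunit) and Gnao1 and Gnai2 (vomeronasal G proteins) had one in all 3 lists, and Cnga4 stood at percentiles 99.3, 99.9 and 99.7. Gng13, Cnga2 and the receptor transporter Rtp1 had one in the Halo-Sox2 list alone, at percentiles 21.9, 7.94 and 50.0. Cngb1, Omp, Stoml3, Rtp2 and Trpc2 had none. Among nuclear factors, Lhx2, Ebf1, Ebf2, Ebf3, Ebf4, Lbr and Kdm1a had one in all 3 lists, Ldb1 had one in both transgene lists, and Emx2 had one in the Halo-Sox2 and control lists.

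Other clustered families gave control-only shares near that of the receptors, from few regions. Near other chemoreceptor genes (Tas1r, Tas2r, Taar and Fpr), 11 of 45 regions were control only, or 24.4% (14.2 to 38.7). Near keratin-associated, defensin, major urinary protein, Mrgpr and Skint genes, 20 of 104 were, or 19.2% (12.8 to 27.8). Both intervals include the 21.5% of the Olfr, Vmn1r and Vmn2r regions, so no difference in that share could be seen at these counts. The second interval also includes the 13.4% of regions far from protein-coding genes, and neither includes the 10.1% of regions elsewhere. In density the other chemoreceptor genes stood higher, with 41.4 regions per Mb (30.2 to 55.4) against 21.1 (19.7 to 22.6), while the second group had 19.4 (15.8 to 23.5).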

How the data were processed

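Peaks were called by the authors for each library, per the peak names in the deposited lists. Per the submitters' processing notes, STAR, SAMtools, MACS2 3.0.0a7, deepTools 3.3.0 and MACS3 were used on mm10, with no role or order given; how reads matching several near-identical receptor copies were placed, any shift of read ends and the peak threshold are not given in the sources used here. Each reaction took about 50000 cells, and reads were 75-bp pairs, per the labels' protocols. The authors deposited a whole-number score per peak without a stated scale; it was used only within a list.

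Python 3.11.15 with pandas 2.3.3 and scipy 1.17.1 merged peaks, classed regions by lists and measured distances; merging was tested on simulated data. Gene bodies and promoter sequences came from RefSeq tables of GRCm38.p6, the assembly behind mm10; 1272 windows matched receptor genes by symbol. The genome span for densities ran on each chromosome to the end of its last gene or region, unsequenced bases included. Members and lists were chosen with earlier results of these data known. Named are the 3 regions of highest mean percentile in each of 7 classes, the 6 loci and 5 genes with most regions, promoter windows held by at least 2 lists, and a fixed list of 30 pathway genes; other windows and genes named were added to complete a count. Alternatives varied the distance, merging, score threshold, list size, cover, gene types and members.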

Additional observations from a re-analysis of the deposited data

How the results depend on the processing

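Of 91 values under 13 alternatives, 73 stayed within the spread set for them and 18 moved. The control-only share stayed above that of regions elsewhere under all 13, from 18.9% to 28.2% against 9.28% to 14.5%, and the Halo-Sox2-only share stayed below under all 13; control-only exceeded Halo-Sox2-only under 11. The exceptions were scores of at least 2 times the lowest and the removal, chosen after seeing the data, of the 2 loci with the most control-only regions. With lists of equal size the shares were 28.2% control only, 16.0% Halo-Sox2 only and 7.89% Halo-Sox2a only. Elsewhere they were 14.5%, 21.5% and 9.99%. With midpoints inside a gene body, 142 regions at 93 genes remained, and 4.23% were Halo-Sox2a only, against 12.3% elsewhere. At 5 kb there were 524 regions at 433 genes, with 8.59% Halo-Sox2a only against 12.3% elsewhere. At 20 kb 1095 genes had a region. Above percentile 50 of each list, 411 regions at 428 genes were left. Of these, 8.52% were Halo-Sox2a only and 2.92% in both transgene lists without the control, against 11.7% and 8.54% elsewhere. With scores of at least 2 times the lowest, 7.84% were Halo-Sox2a only, against 10.5% elsewhere. Without members near another protein-coding gene, 21.6% were in all 3 lists, against 32.2% elsewhere. Where a list had to cover 50% of a region, 24.6% were control only and 19.0% in all 3 lists, against 11.2% and 24.2% elsewhere. Beyond the smaller sets that stricter rules leave by construction, the cause was not tested. No paired analysis was possible because each group had 1 library. Without read depth, a peak missing from a list cannot be told apart from one just under its threshold.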

Other observations

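Among the receptor regions that also lay within 10 kb of another protein-coding gene, zinc-finger genes of chromosome 4 had the most, and 31 regions of the locus from Vmn2r-ps15 to Vmn2r-ps20 lay at them. Zfp982 had 8 such regions, of which 4 were Halo-Sox2 only, 2 were in all 3 lists and none was control only. Zfp992 also had 8, with 3 control only, 2 Halo-Sox2a only, 2 in both transgene lists without the control and 1 in all 3 lists. Zfp981 had 6 and Zfp600 had 4. At Stx3 on chromosome 19, a syntaxin gene, all 3 regions were in all 3 lists. These genes were named after their counts were seen.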
